A study of Triticum dicoccoides with 12 samples.

Results

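The transcripts described here responded to water stress mainly in the roots of one wild emmer wheat genotype, Y12-3, and little in those of another, A24-39. They are 60 of the 61115 probe sets on the Affymetrix wheat array that are not controls, 32 rising and 28 falling. Each probe set combines several short oligonucleotides into one value. The members were chosen by their measured responses: the stressed mean differed from the well-watered mean by 1 unit or more in Y12-3 and by under 0.5 unit in A24-39. Both stress responses, and the difference between them, are therefore descriptions here and not tests.

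Roots came from plants of both genotypes at 4 weeks of age. Each genotype was kept well-watered or left without water for 7 days from the stage with 4 leaves, in a greenhouse. The 4 groups had 3 arrays each, labelled as biological replicates, which gives 12 arrays of total root RNA. The number of plants behind each array is not stated. No transgene, mutation or applied hormone is named, and each genotype is a single line.

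Values are the deposited score, which looks like a logarithm of signal centred near 0, with its base and scaling unstated. If nothing was rescaled after the logarithm, 1 unit is a ratio of 2 for base 2 and of 2.72 for a natural logarithm. The brightest of 23 control probe sets with no wheat target averaged -0.15, and a group mean at or under that value is called background here. A difference that starts or ends at background is a lower bound. In bulk roots, fewer cells of a type and less RNA per cell cannot be told apart.

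As background, roots meet drying soil first. They sense it through falling water potential and the hormone abscisic acid, whose signalling turns on protective proteins such as dehydrins, enzymes that make compatible solutes, and transport proteins. Genes of cell wall loosening and growth are commonly lowered. Wild emmer is the tetraploid ancestor of durum wheat, so copies of a gene from its A and B genomes may bind the same probes, and the probes were designed from bread wheat. Earlier work treated Y12-3 as drought-resistant and A24-39 as susceptible.

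The annotation gave a gene symbol to 1 of the 60 members, against 1273 of all 61115 probe sets. That symbol, LOC542817, is a placeholder whose gene identifier matched 0 entries among the RefSeq genes of WEW_v2.1, so its function is not stated. The other members are given by their probe set names. In those names the first number marks the sequence cluster on which the probe set was built. The endings _a_at, _s_at and _x_at mark probes that may also bind other transcripts, and plain _at marks probes chosen to be specific.

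Strong responses limited to Y12-3 were uncommon among strong responses. In Y12-3, 561 probe sets were higher under stress by 1 unit or more, and their median difference in A24-39 was 1.29 units. Of these, 384 were also higher by at least 1 unit in A24-39, and the 32 rising members made up 5.70%. For 778 probe sets the Y12-3 difference was -1 unit or lower, with a median of -1.20 in A24-39. In A24-39, 537 of those also reached that size, and the 28 falling members made up 3.60%.

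**Figure D1:**
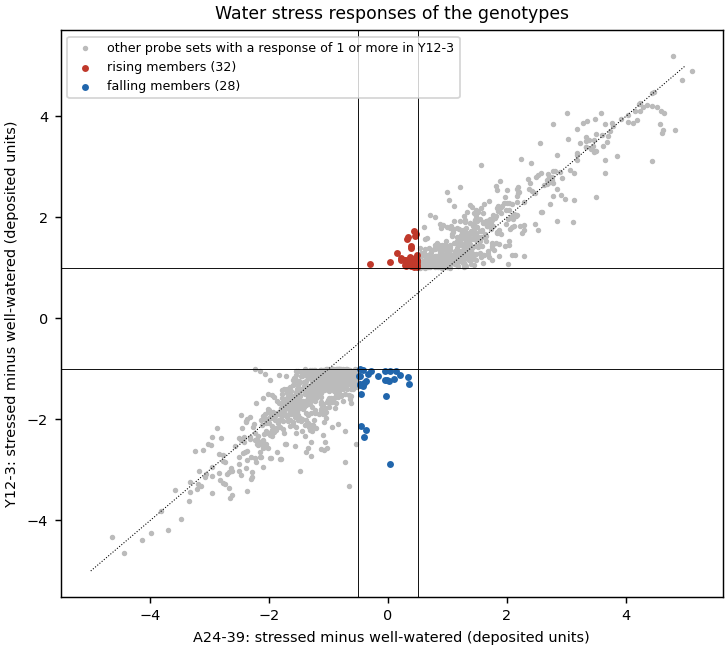
Stressed minus well-watered difference in A24-39 (horizontal) and Y12-3 (vertical), in deposited units, for the probe sets with a difference of 1 unit or more in Y12-3. Each point is a probe set, solid lines mark the bounds of 0.5 and 1 unit, and the dotted line marks equal responses. The 32 rising (red) and 28 falling (blue) members lie at the edges of 2 clouds that follow the dotted line.

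The members ran up to the bounds without a gap. Of the rises, Ta.6420.2.S1_a_at (1.01) was just inside the Y12-3 bound and Ta.1987.1.S1_x_at (0.99) just outside. In A24-39, Ta.5107.1.A1_at (0.49) was just inside and Ta.3055.1.S1_at (0.5047) just outside. Among the falls, TaAffx.84192.1.S1_x_at (-1.01) was just inside and Ta.21039.1.S1_at (-0.9965) just outside in Y12-3. The A24-39 bound separated Ta.8545.1.S1_at (-0.49) from Ta.1997.2.S1_a_at (-0.5007).

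The rising members had a median difference of 1.15 units in Y12-3, between 1.01 and 1.73, and a median of 0.40 in A24-39, between -0.30 and 0.49. In A24-39, 31 of the 32 differed in the same direction, at a smaller size. limma called all 32 higher in Y12-3, where 11.1% of all probe sets were called higher, and 9 of them higher in A24-39, against 5.35%. The stressed Y12-3 arrays lay above the well-watered ones without overlap in 32 of 32, against 17.3% of all probe sets. The rule used these contrasts, so nothing is read from these counts.

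The most sharply defined rise was that of TaAffx.66666.1.A1_at. Its 3 arrays were at -0.23, -0.27 and -0.41 in well-watered Y12-3 and at 1.41, 1.35 and 1.36 in stressed Y12-3. In A24-39 they were at -0.50, -0.42 and -0.48 when well-watered and at 0.02, -0.10 and 0.09 under stress. Both genotypes thus started at background and both were higher under stress without overlap, with all stressed Y12-3 arrays above all stressed A24-39 arrays. The differences were 1.68 ± 0.05 and 0.47 ± 0.05 units (SE of the fit over 12 arrays), both lower bounds. Without one array its A24-39 difference ranged from 0.43 to 0.52, so the bound of 0.5 was within reach of a single array.

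Ta.8837.1.S1_at had the same form. Well-watered arrays were at -0.24, -0.34 and -0.22 in Y12-3 and at -0.28, -0.38 and -0.51 in A24-39. Stressed arrays were at 1.47, 1.52 and 1.11 in Y12-3 and at 0.15, 0.16 and -0.11 in A24-39. Here the genotypes overlapped at background when well-watered and separated under stress.

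For 4 rising members, stressed Y12-3 was the single group above background. Ta.26997.1.S1_at was at 1.34, 0.68 and 1.06 there, against -0.51, -0.51 and -0.65 in well-watered Y12-3. Its A24-39 arrays were at -0.53, -0.58 and -0.51 when well-watered and at -0.30, -0.41 and 0.03 under stress. Only 1 of the 3 stressed A24-39 arrays therefore rose above background.

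Ta.5854.1.A1_at was at -0.30, -0.32 and -0.29 in well-watered and 1.24, 0.69 and 1.01 in stressed Y12-3. Its stressed A24-39 arrays were at -0.34, -0.40 and -0.20, all at background. The other probe set of its cluster, Ta.5854.2.S1_at, had a Y12-3 difference of 0.44 and an A24-39 difference of -0.004, smaller but with the same split between genotypes. TaAffx.86865.1.S1_at had means of -0.59 and 0.63 in well-watered and stressed Y12-3, and of -0.59 and -0.22 in A24-39. Ta.10747.1.S1_at went from -0.63 to 0.52 and from -0.61 to -0.40, with stressed Y12-3 arrays at 0.84, 0.02 and 0.71.

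By contrast, 14 of the 32 rising members had all 4 group means above background. Some were only just above it: the well-watered Y12-3 mean was -0.1516 for Ta.6420.2.S1_a_at, with the control at -0.1518, and -0.13 for Ta.3853.2.S1_at. Such rises may be lower bounds too. Of the named ones among the 14, TaAffx.40933.1.S1_at was the most even: -0.17, -0.08 and 0.01 in well-watered Y12-3, 0.98, 1.01 and 0.94 under stress. In A24-39 it was at -0.00, 0.11 and -0.19 when well-watered and at 0.20, 0.20 and 0.39 under stress. Its lowest well-watered arrays, at -0.17 in Y12-3 and -0.19 in A24-39, were under the control. Its differences were 1.05 ± 0.08 and 0.29 ± 0.08 units (SE), and the genotypes overlapped when well-watered and not under stress.

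Ta.25483.1.S1_at had the largest rise in Y12-3, 1.73 ± 0.42 units (SE), and a different form. Its arrays were at 0.06, 0.27 and -0.36 in well-watered Y12-3 and at 0.82, 2.48 and 1.85 under stress. In A24-39 they were at 1.37, 1.65 and 0.47 when well-watered and at 1.18, 2.04 and 1.57 under stress. The stressed groups overlapped, and the genotypes were apart when well-watered, where all A24-39 arrays exceeded all Y12-3 arrays. The other probe set of its cluster, Ta.25483.2.S1_at, differed by 0.45 in Y12-3 and 0.09 in A24-39.

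Ta.13682.1.A1_at showed how 1 array can set the size. Its stressed Y12-3 arrays were at 2.22, 0.79 and 1.03, and its well-watered A24-39 arrays at -0.27, -0.29 and 0.99. Leaving out one array at a time moved its Y12-3 difference between 1.17 and 1.88 and its A24-39 difference between 0.12 and 0.76. LOC542817, read by Ta.23807.1.S1_x_at, was at 0.23, 0.15 and 1.12 in well-watered and 1.66, 1.64 and 1.55 in stressed Y12-3. In A24-39 it was at 0.67, 0.74 and 0.48 and at 1.15, 0.81 and 1.04. All stressed arrays of each genotype lay above its well-watered arrays, and the stressed genotypes did not overlap. A further probe set of LOC542817, TaAffx.56069.2.S1_at, is no member: its difference was 0.43 ± 0.08 for Y12-3 against 0.19 ± 0.08 for A24-39 (SE).

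**Figure D2:**
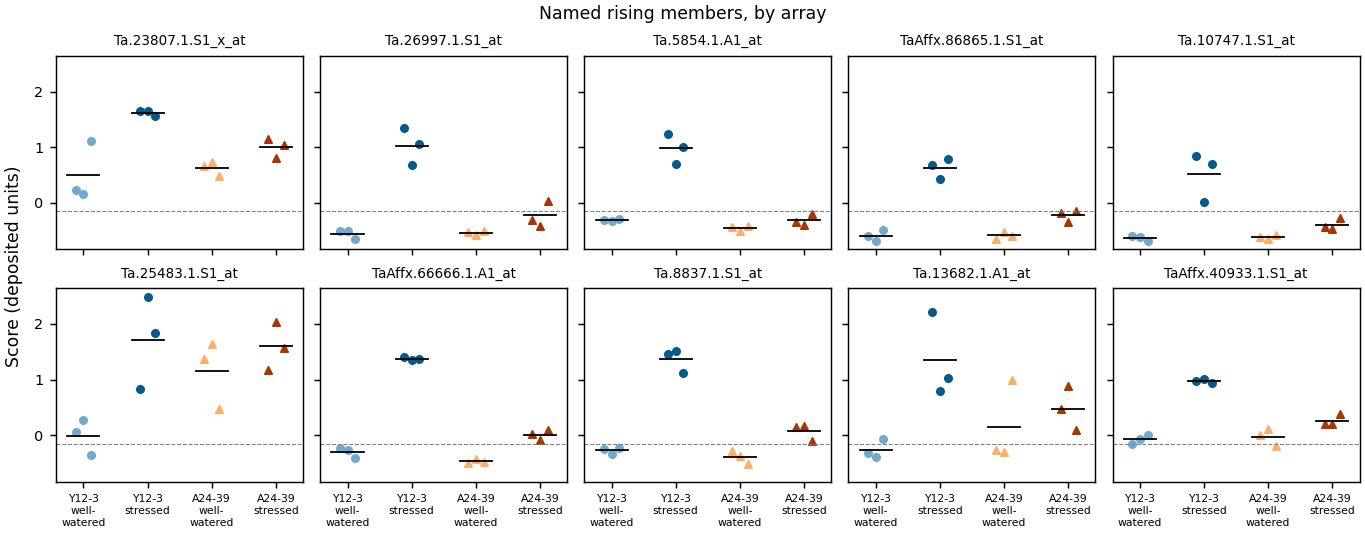
Score (deposited units) of the 10 named rising members on each of the 12 arrays. Points are arrays, short lines are means of 3 arrays, and the dashed line is the brightest control without a wheat target (-0.15). In TaAffx.66666.1.A1_at, Ta.8837.1.S1_at and Ta.5854.1.A1_at stressed Y12-3 stands above the other groups, while in Ta.25483.1.S1_at well-watered Y12-3 stands below them.

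The falling members had a median difference of -1.23 units in Y12-3, between -2.89 and -1.01, and of -0.31 in A24-39, between -0.49 and 0.35. In A24-39, 20 of the 28 differed in the same direction. limma called 24 of the 28 lower in Y12-3, against 8.1% of all probe sets, and 4 lower in A24-39, against 5.36%. The stressed Y12-3 arrays lay below the well-watered ones without overlap in 27 of 28, against 16.4%. As for the rises, nothing is read from these counts.

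Unlike the rises, the falls clustered by sequence: 11 of the 28 came from 4 clusters, and the 28 represent 21 clusters, while the 32 rises came from 32. Probe sets of a cluster can share transcripts and probes, so they are not independent members.

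Cluster Ta.5252 held 3 members of its 6 probe sets. Ta.5252.1.S1_at, the largest fall, was at 2.98, 1.85 and 2.45 in well-watered Y12-3 and at -0.30, -0.50 and -0.60 under stress. In A24-39 it was at -0.66, -0.51 and -0.57 when well-watered and at -0.56, -0.57 and -0.51 under stress. The signal was thus above background in well-watered Y12-3 alone, and a fall as large as in Y12-3 could not have been measured in A24-39. The Y12-3 difference was -2.89 ± 0.21 units (SE).

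Ta.5252.2.S1_s_at went from a mean of 1.47 to -0.06 in Y12-3 and stayed between -0.15 and -0.03 on all 6 A24-39 arrays. Ta.5252.2.S1_x_at went from 0.57 to -0.67 in Y12-3, with A24-39 means of -0.64 and -0.63. The remaining probe sets of the cluster differed in Y12-3 by -0.27, -0.23 and -0.68 units and in A24-39 by -0.01, -0.02 and 0.05. The first and second of these had all 4 means at background, so their differences are not read. All but Ta.5252.2.S1_s_at were at background in A24-39, where little of a fall could have been seen. Ta.5252.2.S1_s_at was close to background there, with means of -0.05 and -0.09, so a fall as large as in Y12-3 could not have been seen.

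Cluster Ta.19210 held 2 members of 5 probe sets, with little spread between replicates. Ta.19210.1.A1_a_at was at 1.43, 1.64 and 1.63 in well-watered and -0.66, -0.64 and -0.59 in stressed Y12-3. A24-39 was at -0.31, -0.06 and -0.20 when well-watered and at -0.64, -0.55 and -0.53 under stress. Its mean was at background in well-watered A24-39, yet all 3 arrays there lay above the stressed ones. The second member, Ta.19210.2.A1_x_at, was at 0.59, 0.69 and 0.59 in well-watered Y12-3 and at -0.52, -0.56 and -0.45 under stress. The differences were -2.20 ± 0.07 and -1.13 ± 0.04 units in Y12-3 and -0.38 and -0.17 in A24-39 (SE from the fit). The other 3 probe sets of the cluster differed by -0.08, -0.75 and -0.58 in Y12-3.

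In the remaining multiple clusters every member had all 4 group means above background. Cluster Ta.7479 held 3 members of 4 probe sets, led by Ta.7479.1.S1_a_at, with means of 3.82 and 2.52 in well-watered and stressed Y12-3 and of 2.14 and 2.49 in A24-39. Ta.7479.3.S1_x_at was at 3.40, 3.04 and 3.03 in well-watered and at 2.35, 2.44 and 1.56 in stressed Y12-3. Its A24-39 arrays were at 1.54, 1.78 and 1.34 and at 2.06, 1.65 and 1.35, overlapping between waterings. The A24-39 differences of the 3 members were 0.14 to 0.35, none past limma's threshold, and that of Ta.7479.3.S1_x_at reached -0.05 without one array. The fourth probe set, Ta.7479.1.S1_at, had differences of -0.51 in Y12-3 and -0.10 in A24-39.

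Cluster Ta.7436 held 3 members of 4 probe sets, with Y12-3 differences of -1.21 to -1.23 and A24-39 differences of -0.05 to 0.11. Ta.7436.1.A1_at was at 1.99, 1.38 and 1.49 in well-watered and 0.76, 0.07 and 0.35 in stressed Y12-3. In A24-39 it was at 0.61, 1.004 and 0.91 and at 1.18, 0.70 and 0.49. Stressed Y12-3 ended lowest on average, at 0.40, against 0.79 in stressed A24-39. The fourth probe set, Ta.7436.3.S1_at, had all 4 means at background.

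Of the falls outside these clusters, TaAffx.113891.2.S1_s_at was at 1.06, 1.27 and 2.53 in well-watered Y12-3 and at -0.71, -0.74 and -0.76 under stress. A24-39 was at background in both, with means of -0.25 and -0.64. The other 2 probe sets of its cluster differed by -0.89 and -0.42 in Y12-3. Ta.25377.1.S1_at, also at background in A24-39, went from 0.43, 0.31 and 1.22 to -0.22, -0.41 and -0.54 in Y12-3.

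TaAffx.111464.1.S1_at was at 1.91, 2.30 and 2.35 in well-watered and 0.11, -0.03 and 0.07 in stressed Y12-3. Its well-watered A24-39 arrays spread widely, at 0.30, 1.12 and 0.01, against -0.01, -0.04 and 0.10 under stress. The A24-39 difference of -0.46 ranged from -0.69 to -0.14 when one array was left out, so its place under 0.5 rested on single arrays. The same holds for TaAffx.86264.1.S1_s_at (-0.74 to -0.22) and Ta.26109.1.S1_at (-0.63 to -0.18). In these 3 members the second well-watered A24-39 array was the highest of its group. TaAffx.42540.1.S1_at went from 1.18, 1.37 and 2.04 to 0.47, 0.20 and 0.55 in Y12-3 and from -0.28, -0.03 and -0.01 to 0.10, 0.02 and 0.16 in A24-39.

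The 4 falling members that limma did not call in Y12-3 were singled out after their values were seen. TaAffx.80963.1.S1_at was at -0.08, -0.24 and 1.83 in well-watered Y12-3, and Ta.5810.1.S1_at at -0.17, -0.17 and 1.82. Both depended on the third array of that group. Ta.30735.1.S1_at was at 1.41, 1.39 and 2.48 in well-watered and 1.58, -0.29 and 0.10 in stressed Y12-3, so its groups overlapped. Ta.5545.1.S1_at was at 2.55, 1.62 and 1.78 and at 1.03, 0.98 and 0.61.

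**Figure D3:**
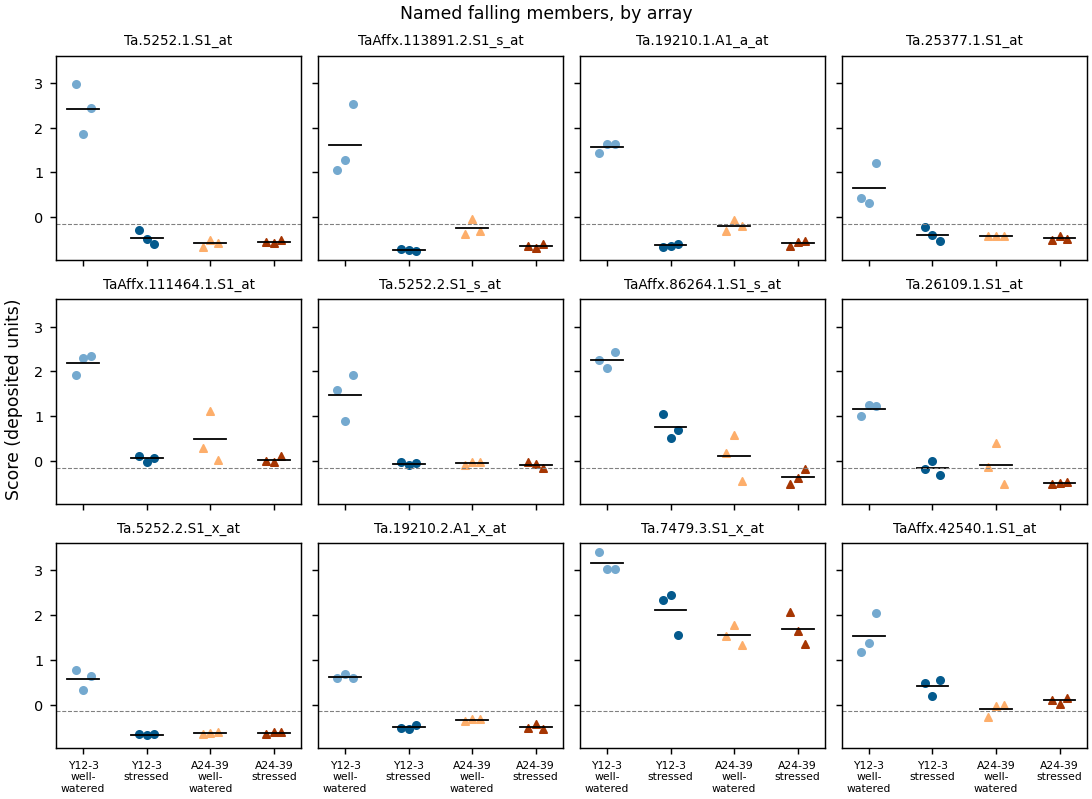
Score (deposited units) of the 12 named falling members on each of the 12 arrays. Points are arrays, short lines are means of 3 arrays, and the dashed line is the brightest control without a wheat target (-0.15). Well-watered Y12-3 stands above the other 3 groups in every panel, and in Ta.5252.1.S1_at it is the single group above the dashed line.

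Rises and falls differed in where the genotypes came apart. Among the rising members the difference between genotypes was wider under stress in 28 of 32: the median of Y12-3 minus A24-39 was 0.01 unit when well-watered and 0.78 under stress. For the falling members it was wider when well-watered in 25 of 28, with medians of 1.07 and -0.01. At the median, the rising members thus reached a higher level in stressed Y12-3. The falling members came down from a higher level in well-watered Y12-3, at the median to about that of A24-39. In 8 falls, stressed Y12-3 and both A24-39 groups were at background. In the 16 falls with all 4 means above background, the median gap under stress was -0.17 unit, with Y12-3 the higher in 6. Stressed Y12-3 arrays exceeded stressed A24-39 arrays without overlap in 24 of the 32 rises, where 15% of all probe sets did. Well-watered Y12-3 arrays exceeded well-watered A24-39 arrays in 23 of the 28 falls, where 8.44% did. These gaps share arrays with the differences that chose the members, so they are a description.

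All exceptions were among members with 4 means above background, of which 10 of 14 rises and 13 of 16 falls followed the pattern. The other 18 rises and 12 falls had at least 1 group at background. Among the rises, 4 had the wider gap when well-watered; Ta.25483.1.S1_at (-1.17) is one. Among the falls, 3 had the wider gap under stress, and the widest such gap was -0.83, with Y12-3 the lower.

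**Figure D4:**
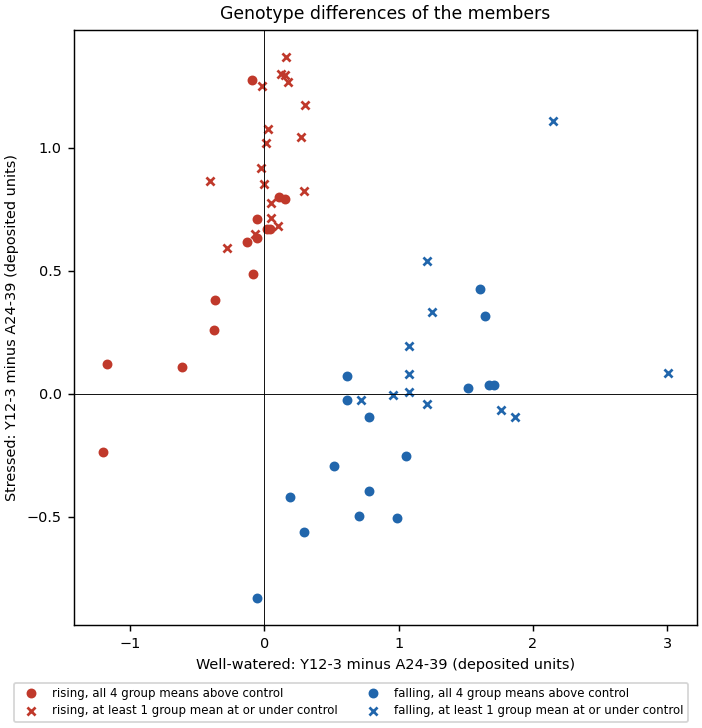
Y12-3 minus A24-39 difference in well-watered (horizontal) and stressed roots (vertical), in deposited units, for the 60 members. Each symbol is a member, red for rising and blue for falling, and crosses have at least 1 group mean at or under the brightest control without a wheat target. Most rising members lie near 0 on the horizontal axis and most falling members near 0 on the vertical axis.

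The genotype average, which is the mean of both Y12-3 groups minus the mean of both A24-39 groups, is built from the same group means as the stress responses. Its error is independent of theirs only where all groups spread alike, and the median SD over the falling members was 0.31 in well-watered and 0.16 in stressed Y12-3. A rise from a shared level, or a fall to one, also places the average higher in Y12-3. The calls are therefore a description, and nothing is read from their excess. limma called the average higher in Y12-3 for 19 of the 32 rising members and 16 of the 28 falling members, and lower for 0, at an adjusted p under 0.05. Over all probe sets the calls were 6.97% higher and 5.76% lower. Lower averages with a raw limma p under 0.05 numbered 2 among the rises and 0 among the falls, and the share of all probe sets at that level is not given here. Where A24-39 lay at background in both waterings, a member had to average higher in Y12-3. These were 5 rises and 8 falls, of which 5 and 6 were called.

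For the members with all 4 group means above background, the count was 4 of 14 rises and 6 of 16 falls higher and 0 lower. Among all probe sets of that kind, 11.4% were called higher and 7.51% lower. The limits just given hold for these members too. The 6 falls include probe sets of shared clusters. The median averages were 0.27 unit for the 14 rises and 0.32 for the 16 falls. Over all probe sets, including those at background, the median was -0.01. The median over all probe sets with 4 means above background is not given here.

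Among those, Ta.7479.3.S1_x_at had the highest average, 1.02 ± 0.17 units (SE), with Y12-3 above A24-39 on all well-watered arrays. TaAffx.42540.1.S1_at followed with 0.98 ± 0.13 and TaAffx.111464.1.S1_at with 0.87 ± 0.16 (SE). The last of these came from the well-watered groups alone, since the stressed means were 0.05 and 0.02.

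Among members with a group at background, the average was 1.63 ± 0.16 for TaAffx.86264.1.S1_s_at and 1.55 ± 0.15 for Ta.5252.1.S1_at (SE). TaAffx.86264.1.S1_s_at exceeded A24-39 under both waterings, with stressed Y12-3 at 1.05, 0.51 and 0.70 against -0.51, -0.39 and -0.17. For TaAffx.66666.1.A1_at the average was 0.77 ± 0.04 (SE). Ta.10747.1.S1_at averaged 0.45 ± 0.12 higher in Y12-3 (SE; limma adjusted p = 0.0302), a call lost in 10 of the 12 fits without one array (adjusted p of 0.0520 to 0.0731).

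Ta.25483.1.S1_at averaged -0.53 ± 0.30 (SE; limma adjusted p = 0.277), lower in Y12-3. With replicate number within each watering as a block, its adjusted p in limma was 0.0246. In that paired fit 20 rising members were called higher and 2 lower, and its share over all probe sets is not given here. A signal difference between genotypes is not necessarily one of transcript level, because the probes match bread wheat and mismatches in either genotype were not tested.

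The difference between the responses, the interaction, was called for 4 of the 32 rises (0.054% of all probe sets were called higher) and 4 of the 28 falls (0.0311% lower). The paired fit within watering called 6 and 7. In the main fit 25 rises and 21 falls had an unadjusted limma p under 0.05. For these counts the shares of all probe sets are not given here. Over all 61115 probe sets the main fit called 52 at the adjusted threshold, and 8 of them are members. The rule used this contrast too, so nothing is read from these counts.

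How far the choice holds in other arrays was read directly. Probe sets were chosen again by the rule on 2 replicate numbers, and the responses were read in the 4 arrays of the number left out. For the counts that follow, the shares of all probe sets are not given here. Rises chosen without number 1 had median responses of 1.03 in Y12-3 and 0.22 in A24-39 in the left-out arrays, and without number 2 of 1.06 and 0.22. Without number 3 they were 1.01 and 0.64. Of the 32, 25 and 66 chosen, 17, 17 and 26 are among the rising members described above. The left-out response was higher in Y12-3 for 29, 24 and 46 of those chosen, and 12, 12 and 7 met both bounds again.

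Falls chosen without number 1 had left-out medians of -0.97 in Y12-3 and -0.10 in A24-39. Without number 2 these were -0.73 and -0.60, and without number 3 -1.20 and -0.83. Of the 32, 73 and 43 chosen, 20, 26 and 13 are among the falling members described above. The left-out response was lower in Y12-3 for 30, 47 and 31 of those chosen, and 9, 7 and 8 met both bounds again. The left-out Y12-3 response had the chosen direction in 27, 25 and 64 of the rises and 32, 70 and 41 of the falls. The left-out A24-39 response was under 0.5 unit in size in 23, 19 and 20 of the rises and 22, 30 and 14 of the falls.

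**Figure D5:**
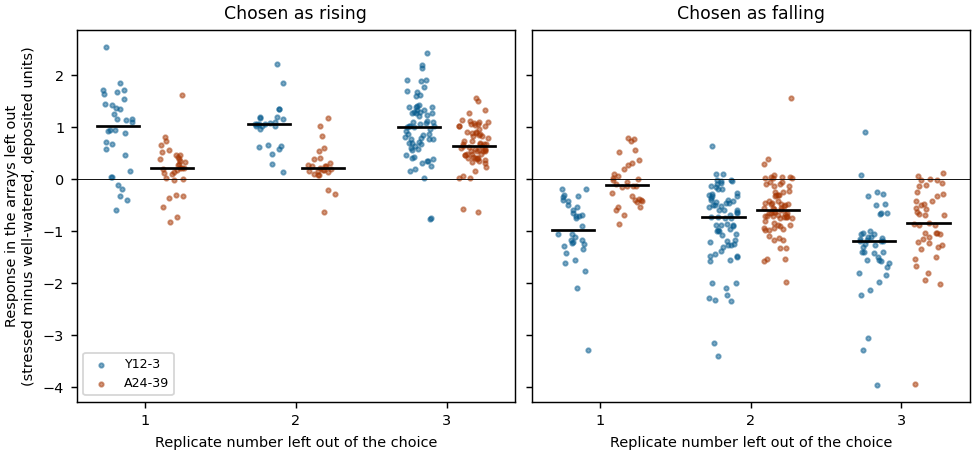
Stressed minus well-watered difference (deposited units) in the 4 arrays of the replicate number left out, for probe sets chosen by the same rule on the other 2 numbers. Points are probe sets, blue for Y12-3 and brown for A24-39, and black lines are medians. The medians of the genotypes are far apart without number 1 (1.03 and 0.22 for rises) and close without number 2 for falls (-0.73 and -0.60).

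Membership also moved when single arrays were left out and when a labelling measure entered the fit. Of the 60 members, 16 met the rule in all 12 sets without one array, 8 rises and 8 falls. In 8 of the 16, 3 rises and 5 falls, A24-39 was at background under both waterings. For the 5 falls, a group at background can show only a small part of a fall. In A24-39, Ta.19210.1.A1_a_at still differed by -0.38, Ta.19210.2.A1_x_at by -0.17 and TaAffx.113891.2.S1_s_at by -0.40, each without overlap between waterings. Ta.5252.1.S1_at (0.03) and Ta.5252.2.S1_x_at (0.01) did not fall there. All 3 members of cluster Ta.5252 and both of cluster Ta.19210 are among the 16, as are Ta.26997.1.S1_at, Ta.5854.1.A1_at, TaAffx.86865.1.S1_at and TaAffx.40933.1.S1_at. The count of rises ranged from 24 to 48 and that of falls from 23 to 52 without one array; falls numbered 52 without the second well-watered Y12-3 array, 48 without the third stressed A24-39 array and 43 without the third well-watered A24-39 array. The third arrays of both well-watered groups had the lowest weights in limma, 0.292 and 0.301.

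The dap spike-ins are control transcripts added before labelling, and their signal at the 3′ end less that at the 5′ end was lower on average on the stressed arrays of both genotypes. It averaged 1.27 ± 0.27 in well-watered and 0.84 ± 0.03 in stressed Y12-3, and 1.21 ± 0.13 and 1.05 ± 0.06 in A24-39 (SD, n = 3 arrays). Its arrays did not overlap between waterings in Y12-3 (0.97 to 1.49 well-watered, 0.80 to 0.86 stressed). The same held in A24-39 (1.11 to 1.36 and 0.98 to 1.09). As a covariate it therefore follows the watering, and the fit cannot tell labelling and stress apart. With this covariate 66 rises and 92 falls met the rule, including 16 of the 32 and 18 of the 28 members. After shifting arrays to equal spike-in means, which moved the median Y12-3 response of all probe sets to 0.10, 53 rises and 22 falls did, including all 32 and 21 of 28. The part of labelling in the members' responses was not tested further.

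Plain _at endings made up 62.5% of the rises and 53.6% of the falls, against 79.2% of all probe sets. The _x_at ending made up 28.6% of the falls, in part from shared clusters, against 12.5% of the rises and 11.1% of all. The other strong Y12-3 responders had like shares: plain _at was 63.1% of 529 rises and 52.3% of 750 falls, and _x_at 17.6% and 31.3%. Plain _at and _x_at shares are thus not particular to the members. The _a_at ending made up 18.75% of the rises and 7.14% of the falls, against 5.43% of all. Its share among the other strong responders is not given here.

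No probe set with a symbol listed for stress, root or shoot genes was a member. The lists were matched by symbol, which all but 1 of the 60 members lack. Whether members belong to such genes could therefore not be read. Of 30 stress gene symbols, 3 were on the annotated array with 5 probe sets. COR410, a cold-regulated dehydrin, rose by 0.29 ± 0.06 in Y12-3 (SE; limma adjusted p = 0.00444), and its A24-39 rise was 0.42 ± 0.06 (SE; limma adjusted p = 0.000803). THI1.1 came nearest to the rule: Ta.23967.1.S1_s_at had differences of -0.98 ± 0.12 in Y12-3 (SE; limma adjusted p = 0.000303) and -0.42 ± 0.12 in A24-39 (SE; limma adjusted p = 0.0487). Ta.23967.1.S1_x_at, also of THI1.1, fell by 0.71 ± 0.08 in Y12-3 (SE; limma adjusted p = 0.000260) and differed by -0.07 ± 0.08 in A24-39. The 2 catalase (CAT1) probe sets were at background in all groups. Of the 5 stress probe sets, Y12-3 thus had 1 rise and 2 falls past the threshold, and A24-39 had 1 of each.

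Shoot tissue was checked with petC and FBP, 2 of 8 listed symbols with 4 probe sets. Their group means lay between -0.78 and -0.11, at or near background, with 0 of 4 called in either genotype. Of 6 root growth symbols, XTH and TUBA were on the array with 3 probe sets. TUBA, alpha-tubulin, fell on Ta.812.1.S1_x_at by 0.44 ± 0.14 in Y12-3 (SE, limma adjusted p = 0.0450) but differed there by 0.05 ± 0.14 in A24-39 (SE). On Ta.723.1.S1_at it fell by 0.29 ± 0.03 in A24-39 (SE, limma adjusted p = 0.000349), from a mean of -0.10 to background at -0.39. In Y12-3 that probe set was at background under both waterings, at -0.42 and -0.50. The calls were thus 1 of 3 in each genotype, on different probe sets. XTH, a cell wall enzyme, differed by -0.32 ± 0.17 in Y12-3 and 0.32 ± 0.17 in A24-39 (SE) and passed in neither.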

How the data were processed

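Total root RNA was labelled with biotin and hybridised to 12 Affymetrix wheat arrays, 3 in each of 4 groups, per the labels' protocols. The authors deposited 1 score for each probe set and array. RMA is named in the submitters' processing notes; its version and any later scaling or centring are not stated. The number of arrays limits the precision. The labels call the replicates biological without saying what separates them, so p-values measure the spread between these samples, which may be technical.

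Without 175 controls, 61115 of 61290 probe sets remained. Group means of 3 arrays chose the members. limma 3.58.1 in R 4.3.3 fitted the 4 group means to the deposited values of all 12 arrays (8 residual degrees of freedom), with Benjamini-Hochberg adjustment over all 61115 probe sets and a threshold of 0.05. The genotype average is given as a description, since the group means that chose the members enter it. The members and gene lists were chosen with earlier results of these data known.

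Named were the member with a symbol, the largest responses with and without A24-39 signal (1 for each cluster), the members past the interaction threshold, the extreme genotype averages past the threshold among members with all 4 means above the control, the probe sets nearest to the bounds, and the other probe sets of named clusters. Same-numbered arrays of the genotypes deviated together from their group means (r of 0.197 to 0.278 well-watered and 0.170 to 0.575 stressed, every pair over 0.1), and were taken as pairs within a watering; same-numbered arrays of different waterings were not (-0.104 to 0.126 within a genotype, -0.183 to 0.332 between genotypes). Differently numbered arrays of the genotypes had r of -0.189 to -0.0167 well-watered and -0.510 to 0.175 stressed. Under stress the highest of these, 0.175, exceeded the lowest same-numbered r, 0.170. The labels do not say what a number shares. Alternatives were single arrays or replicate numbers left out, quantile, spike-in and median scaling, array weights, the dap covariate, a filter keeping 27203 probe sets above the control on at least 3 arrays, group medians, a variance trend and replicate blocks.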

Additional observations from a re-analysis of the deposited data

Results flagged for a closer look

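For 8 members the responses of the genotypes differed by limma's interaction test, on the contrast that also chose them, so the values describe and support nothing. Response in Y12-3 minus response in A24-39 was 1.20 for TaAffx.66666.1.A1_at, 1.17 for Ta.8837.1.S1_at, 1.14 for Ta.5854.1.A1_at and 0.76 for TaAffx.40933.1.S1_at among the rises. Among the falls it was -2.92 for Ta.5252.1.S1_at, -1.82 for Ta.19210.1.A1_a_at, -1.25 for Ta.5252.2.S1_x_at and -0.96 for Ta.19210.2.A1_x_at. The 4 falls come from 2 clusters, and in all 4 of them A24-39 was at background under both waterings.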

How the results depend on the processing

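In 21 alternatives the genotype average was called higher for 17 to 21 rises (17 to 19 of the 19 called) and 15 to 17 falls (15 to 16 of the 16 called). In 8 of them 1 rise was also called lower. The replicate block gave 20 rises and 16 falls, and the replicate block within watering 22 (20 higher, 2 lower) and 16. For these counts the shares of all probe sets are not given here. The average is built from the group means that chose the members, so nothing is read from the counts. Of the values for 22 named members in 21 alternatives, 450 kept their direction and side of the threshold, 11 lost the call (all Ta.10747.1.S1_at) and 1 gained it (Ta.25483.1.S1_at); none reversed. Membership was less stable. Rises numbered 53 after the spike-in shift, 66 with the dap covariate and 56 by group medians (24 of the 32 shared), and falls 92 with the covariate and 52 by medians (15 of the 28 shared). Without single arrays or replicate numbers, rises ranged from 24 to 66 and falls from 23 to 73. Interaction calls among the falls were 7 with the replicate block within watering, 10 with array weights, 8 with the covariate and 7 with a variance trend. Among the rises they were 1 after quantile normalization, 15 after the spike-in shift, 17 with weights, 2 with the covariate, 8 without dim probe sets and 9 with a trend. Without single arrays they ranged from 1 to 14 for rises and 4 to 9 for falls, with 14 and 9 both without the third well-watered Y12-3 array. The share called over all probe sets moved too, from 0.0851% to 1.42% with weights and 1.02% without that array. For the other alternatives that share is not given here, and nothing is read from the interaction counts. The cause of these shifts was not tested. Signal at background touched 18 of 32 rises and 12 of 28 falls.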

Other observations

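Ta.425.1.S1_s_at, chosen here after its values were seen, was the rising member with the lowest genotype average, -0.72 unit (Y12-3 minus A24-39). Its gap between genotypes was -1.20 when well-watered and -0.24 under stress, so A24-39 had the higher mean under both waterings, unlike most rising members. The arrays of the genotypes were apart when well-watered but overlapped under stress. It met the rule in all 12 sets without one array.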
